A study of Mus musculus with 4 samples.

Results

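Single hematopoietic stem cells (HSCs), the rare bone marrow cells that renew themselves and give rise to all blood lineages, were ranked by their transcripts for licensing and copying DNA, and the cells at the top of that ranking are described here. Each cell received a licensing score, the sum of the levels of Mcm2, Mcm4, Mcm5, Mcm6, Pcna, Tyms, Rrm1 and Uhrf1 in CPM, a gene's counts divided by all counts of the cell and scaled to 1000000. Members were chosen by that score alone: the highest 25% of the cells of each library are called licensing-high, and the lower 50% of the same library are called licensing-low. Of 297 cells in the count table, 264 passed the minimum of 30000 counts and 1000 genes and lay outside 2 runs of 8 cells that were set aside. The licensing-high group held 66 cells, 18 from library 1 and 16 from each of libraries 2, 3 and 4. The licensing-low group held 132 cells, 36, 32, 32 and 32 by library, and 66 cells lay between.

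All cells came from the marrow of wild-type mice 8 weeks old, with no treatment named. They had been enriched for c-Kit and sorted as Lin-, c-Kit+, Sca-1+, CD150+, CD48- and CD201+ (EPCR), a gate named ESLAM SK that is rich in HSCs. The study sorted such cells by CD27, a receptor of the tumor necrosis factor family, but every library carries both CD27 gates in its label and no source gives the gate of a cell. The 4 libraries therefore form 1 group, and each holds cells of both sides of the comparison below. Whether they are from different mice is not given, so each p-value measures only how these 4 libraries vary, and that variation may be technical.

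Before a cell can copy its DNA, the origin recognition complex, Cdc6 and Cdt1 load the ring of Mcm2 to Mcm7 onto replication origins, which is called licensing. At the start of S phase, Cdc45 and the GINS complex turn the loaded ring into the active helicase, and Pcna, the sliding clamp, holds polymerases on the template. Tyms and Rrm1 make deoxynucleotides, and Uhrf1 brings the maintenance methyltransferase Dnmt1 to newly copied DNA. Many of these genes are targets of E2F factors, which the Rb proteins hold in check until cyclin D and cyclin E kinases act. Most HSCs of an adult mouse are out of the cell cycle.

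The score was graded, with no gap at its limit. The median score of the licensing-high cells was 773, 763, 1109 and 954 CPM in libraries 1 to 4, and that of the licensing-low cells was 170, 131, 211 and 187 CPM. The lowest licensing-high cell and the highest cell outside had 551.9 and 550.8 CPM in library 1, 642 and 641 CPM in library 2, 719 and 699 CPM in library 3, and 585 and 566 CPM in library 4. Within 1.2-fold of that limit lay 47 cells, 24 inside and 23 outside. The highest cell reached 3034, 3745, 4491 and 1868 CPM in the 4 libraries, and 13 licensing-low cells had no count of any of the 8 genes. The class is a range of a score, not a cell type set apart from the rest.

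**Figure D1:**
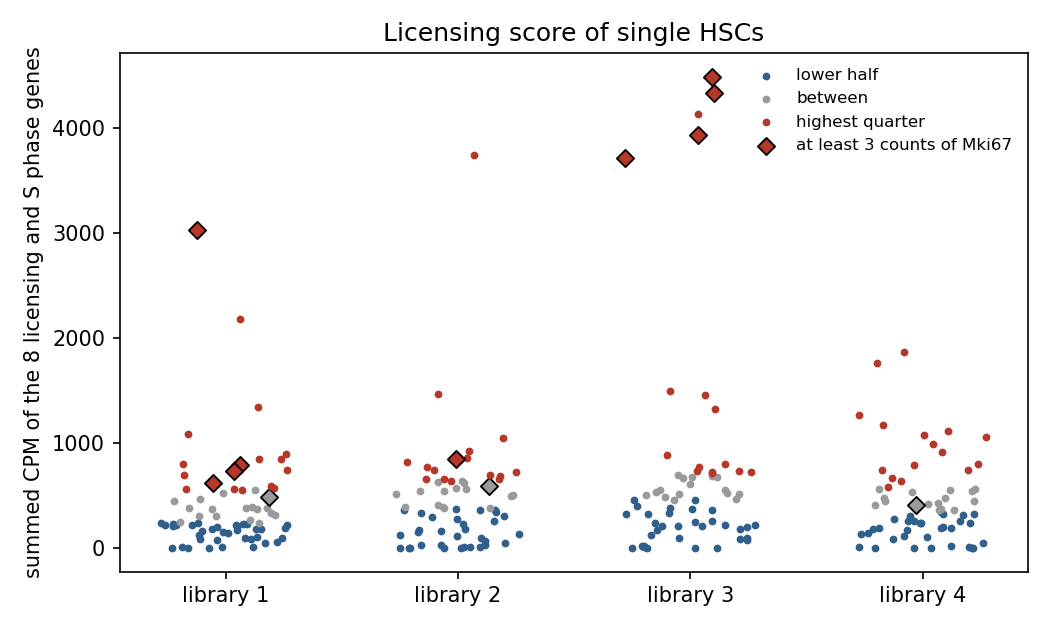
Licensing score of each of the 264 cells, as the summed CPM of the 8 genes on a linear axis, by library. Red points are the highest 25% of each library (66 cells), grey points the cells between (66) and blue points the lower 50% (132). Black-edged diamonds are the 12 cells with at least 3 counts of Mki67. The red and grey points meet without a gap, and the diamonds lie mostly toward the top.

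Most licensing-high cells reached the group through a few transcripts, not through all 8. Of 66 cells, 2, 17, 19 and 10 had counts of 1, 2, 3 and 4 of the genes, and 2, 4, 8 and 4 had counts of 5, 6, 7 and 8 of them. At least 4 genes were found in 28 licensing-high cells, in 7 of the 66 cells between and in 6 of the 132 licensing-low cells. After each cell was thinned to 30000 counts, the same limit was met by 23 licensing-high and 2 licensing-low cells. A single gene made up over 50% of the score in 40 of the 66 cells. Mcm6, a subunit of the helicase ring, was that largest contributor in 29 of the 66 cells and Pcna in 18. Mcm2, Mcm4, Tyms and Rrm1 led in 4 cells each, Mcm5 in 2 and Uhrf1 in 1.

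The markers given for the group, Mcm5, Pcna and Tyms, were checked cell by cell. All 3 were found together in 14 of 66 licensing-high cells, in none of the 66 between and in 1 of 132 licensing-low cells. At least 2 of them were found in 30 licensing-high, 11 intermediate and 14 licensing-low cells. Since these genes are part of the score, that order was fixed by the choice of cells. It also shows that 36 of the 66 licensing-high cells held at most 1 of the markers.

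Across the cells of a library, the 8 genes went together only loosely. The Spearman rank correlation, averaged over the 4 libraries, was positive for 27 of the 28 pairs, with a median of 0.161 and a range from -0.006 (Mcm4 with Rrm1) to 0.298 (Tyms with Uhrf1). It was positive in all 4 libraries for 13 pairs. The points of each correlation are the cells of 1 library, 72 in library 1 and 64 in each of libraries 2, 3 and 4. These cells differ in depth, and weak values in sparse counts describe these cells only.

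To show what stands in front of these genes, the 250 bases before the start of transcription were read for 7 of the 8 from RefSeq on GRCm38.p6. No window was matched for Mcm4. The words TTTCGCGC, TTTGGCGC, TTTCCCGC and TTTGCCGC, spelled forms of the E2F site, were searched on both strands, with overlapping matches each counted. Mcm5 and Mcm6 are printed because they hold the most matches, and Tyms because it is a marker without one. Capitals mark the matched words, and each sequence runs 5′ to 3′ on the gene's strand.
Mcm5 (chr8:75109259-75109508, plus strand): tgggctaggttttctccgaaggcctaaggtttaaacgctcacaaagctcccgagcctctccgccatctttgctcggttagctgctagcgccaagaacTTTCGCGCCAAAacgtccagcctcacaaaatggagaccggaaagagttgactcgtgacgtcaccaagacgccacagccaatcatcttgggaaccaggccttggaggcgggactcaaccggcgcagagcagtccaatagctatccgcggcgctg
Mcm6 (chr1:128359706-128359955, minus strand): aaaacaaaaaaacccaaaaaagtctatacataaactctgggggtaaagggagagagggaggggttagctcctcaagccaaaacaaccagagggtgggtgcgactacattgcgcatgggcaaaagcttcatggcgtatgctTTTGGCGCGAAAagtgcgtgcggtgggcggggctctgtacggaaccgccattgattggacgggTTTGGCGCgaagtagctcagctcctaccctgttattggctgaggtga
Tyms (chr5:30073626-30073875, minus strand): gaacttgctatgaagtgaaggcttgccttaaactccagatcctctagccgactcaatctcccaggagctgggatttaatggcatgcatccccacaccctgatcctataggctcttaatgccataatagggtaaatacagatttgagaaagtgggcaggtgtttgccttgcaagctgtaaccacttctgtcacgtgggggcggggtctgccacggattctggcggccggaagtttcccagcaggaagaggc
The Mcm5 window held 2 words that overlap on opposite strands, beginning 153 and 149 bases before the start, and the Mcm6 window held 3, beginning 110, 106 and 47 bases before it. Uhrf1 had 1 word in 1 of its 2 windows, and Mcm2, Pcna, Tyms and Rrm1 had none of these letters in theirs. Such a word stood in 1.86% of all 32851 RefSeq windows of that length and in 3.44% of those of the genes tested below. A CCAAT box on either strand was in 7 of the 8 windows of the score genes and in 33.85% of all windows. A match describes letters and is no measure of binding.

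The summed levels of the score genes show how much each library added. In the counts summed per library and side, the 8 genes together reached 1158, 1188, 2542 and 1046 CPM in the licensing-high cells of libraries 1 to 4 and 147, 160, 190 and 191 CPM in the licensing-low cells. Library 3 stood above the other 3 on the high side. Without the 9 licensing-high cells that had at least 3 counts of Mki67, a proliferation antigen, the high side gave 1094, 1198, 1322 and 1051 CPM. These sums describe the choice of cells and are not tested.

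Licensing-high cells were also somewhat deeper in all 4 libraries. Their median total was 98845, 154121, 74453 and 170904 counts per cell in libraries 1 to 4, against 90684, 102460, 63972 and 150400 in licensing-low cells. Genes detected per cell had medians of 3283, 3105, 3444 and 3369 against 2993, 2891, 2978 and 3191, a mean difference of 287 ± 128 genes (SD, n = 4; exact two-sided sign-flip test over libraries, p = 0.13, the smallest that 4 libraries allow). Thinned to the same depth, the difference was 192 ± 142 genes (SD, n = 4), again higher in 4 of 4 libraries. Mitochondrially encoded counts were 1.40% and 1.39% of a cell's counts on the high and low side, and ribosomal protein genes 18.4% and 18.5%. Each of these is the mean of the 4 library medians.

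Each score gene was then measured in cells that it had not helped to choose. For each of the 8, cells were ranked by the other 7 genes, and the left-out gene was compared between the highest 25% and the lower 50%. Counts were summed per library and side and tested with edgeR, with library as a block and Benjamini-Hochberg adjustment over all genes tested. None of the 8 passed the adjusted threshold of 0.05, while 7 of 8 had an unadjusted p under it and 5 of 8 passed with DESeq2. With each cell thinned to 30000 counts and ranked anew, or without library 3, the 7 became 4. Over the 8 fits together, 0.0227% of genes were called higher by edgeR, from 0.0107% in the fit without Mcm2 to 0.0321% in those without Mcm4 or Mcm5. Of the 8 genes, 6 were higher on the chosen side in 4 of 4 libraries, against 6.37% of all other genes in the comparison by the full score. In that comparison 2.48% of other genes were higher at an unadjusted p of 0.05, and DESeq2 called 0.587% higher. These last shares were not taken for the 8 fits.

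Uhrf1 had the largest difference of the 8. Its level was 67.6, 18.1, 96.8 and 62.9 CPM in the cells chosen without it in libraries 1 to 4, and 2.93, 2.33, 6.85 and 4.07 CPM in the cells ranked low. The sides did not overlap, and the log2 fold change was 3.81 (SE 0.73; edgeR adjusted p = 0.187). The share of all genes without overlap was not taken for the 8 fits. In the comparison by the full score it was 1.88% upward.

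The 4 Mcm genes, whose products form the helicase ring with Mcm3 and Mcm7, were each higher on the chosen side in 4 of 4 libraries. Mcm5 stood at 45.8, 89.4, 239 and 28.4 CPM against 25.2, 8.15, 28.1 and 12.6 CPM, a log2 fold change of 2.13 (SE 0.59; edgeR adjusted p = 0.575). Mcm2 stood at 93.4, 67.8, 236 and 113 CPM against 10.9, 41.1, 40.3 and 38.8 CPM, a log2 fold change of 1.97 (SE 0.47; edgeR adjusted p = 0.393). In both genes library 3 was the highest and the sides did not overlap, though for Mcm5 library 4 of the chosen side stood level with library 3 of the other. Mcm4 stood at 70.6, 62.2, 240 and 86.4 CPM against 35.3, 22.4, 45.1 and 30.5 CPM, with no overlap. Mcm6, the most abundant of them, stood at 262, 236, 466 and 198 CPM against 140, 155, 124 and 116 CPM, also with no overlap. Their log2 fold changes were 1.59 (SE 0.40) and 1.04 (SE 0.26), with edgeR adjusted p of 0.408 and 0.576.

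Rrm1, the large subunit of ribonucleotide reductase, stood at 85.2, 74.7, 260.2 and 38.1 CPM against 22.8, 42.5, 51.0 and 23.1 CPM, higher in 4 of 4 libraries with sides that overlap. Pcna stood at 207, 203, 570 and 185 CPM against 93.1, 120.2, 102 and 186 CPM, so that library 4 had the same level on both sides. Tyms, which makes thymidylate, stood at 41.3, 61.8, 283 and 11.8 CPM against 22.7, 34.5, 3.62 and 26.8 CPM, and was lower on the chosen side in library 4. Without library 3 the log2 fold changes of Tyms and Pcna were 0.20 and 0.62, against 1.24 (SE 1.00) and 1.08 (SE 0.36) with it. In thinned cells, ranked anew by their thinned counts, the log2 fold changes of Rrm1, Pcna, Mcm4 and Mcm2 were 0.67, 0.58, 0.92 and 1.28. They were smaller than at full depth, but the cells compared differ too. Without the cells with Mki67 counts, Mcm4 and Rrm1 were higher in 3 of 4 libraries and their log2 fold changes were 0.64 and 0.60, against 1.59 and 1.45 (SE 0.43) with them.

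**Figure D2:**
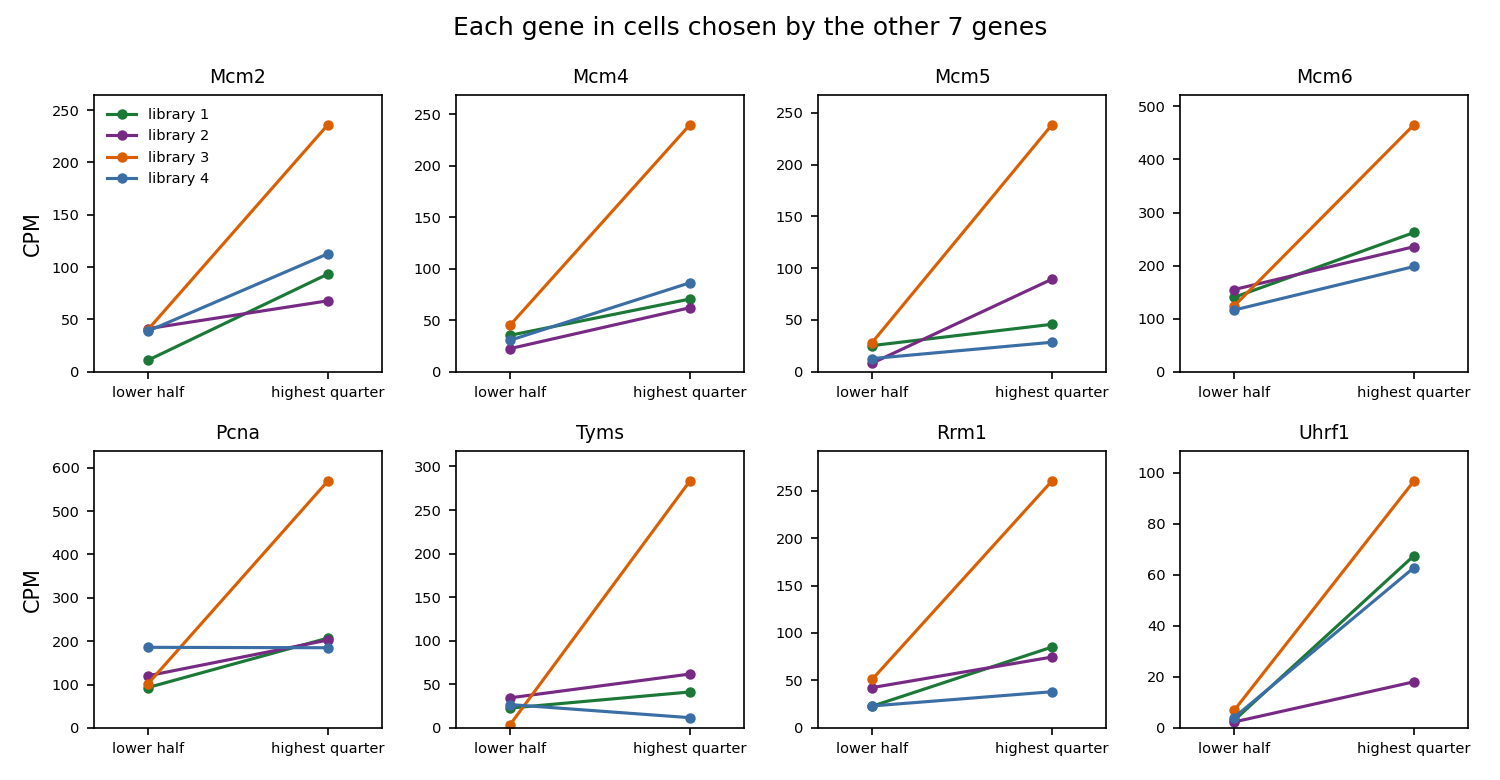
Level in CPM of each score gene in cells ranked by the other 7 genes, in 8 panels with linear axes from 0. Each line joins the lower 50% (left) and the highest 25% (right) of 1 library. Lines of 6 genes slope upward in all 4 libraries. Those of Pcna and Tyms do not in library 4, and library 3 is the highest on the right in each panel.

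Outside the score, few genes passed the test between licensing-high and licensing-low cells. Of 9367 other genes with counts in at least 5% of the cells and at least 5 CPM over the 8 sums, edgeR called 2 higher (0.0214%) and 1 lower (0.0107%) at an adjusted p of 0.05. The higher genes were Tubb5, a beta tubulin, and Car1, a carbonic anhydrase of red cells, and the lower one was Ier2, an immediate early gene. At an unadjusted p of 0.05 the counts were 232 higher (2.48%) and 247 lower (2.64%). DESeq2 called 55 higher (0.587%) and 54 lower (0.576%) at an adjusted p of 0.05. The median log2 fold change of all genes tested was -0.09. Without library 3, or without library 1, edgeR called no gene higher, with 296 and 419 genes at an unadjusted p of 0.05 in either direction. DESeq2 was not run without a library.

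Tubb5 (chr17:35833921-35838306, minus strand, GRCm38) rose in the licensing-high cells. Its level was 911, 744, 1278 and 580 CPM in libraries 1 to 4, against 408, 359, 454 and 281 CPM in licensing-low cells. The lowest library of the high side lay above the highest of the low side, and the log2 fold change was 1.19 (SE 0.15; edgeR adjusted p = 0.0134). The transcript was found in 62 of 66 licensing-high and 117 of 132 licensing-low cells, most of both sides. In thinned cells the shares were 92.4% and 81.1%. Without the cells with Mki67 counts, Tubb5 stood at 571, 756, 714 and 583 CPM on the high side, the log2 fold change was 0.81 and edgeR no longer called it (adjusted p = 0.584). It also missed the threshold without library 1, 2 or 3 (adjusted p = 0.141, 0.0687 and 0.177).

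Ier2 (chr8:84661331-84662852, minus strand) fell in the licensing-high cells. It stood at 986, 1063, 924 and 1717 CPM, against 1605, 1780, 1452 and 2567 CPM in the licensing-low cells of the same libraries. It was lower in each of the 4 libraries, but library 4 was high on both sides, so the ranges overlap. The log2 fold change was -0.67 (SE 0.10; edgeR adjusted p = 0.0334). With each cell thinned to 30000 counts and ranked anew, it was -0.33 and not called (edgeR adjusted p = 0.833). Without the cells with Mki67 counts the log2 fold change was -0.44 (edgeR adjusted p = 0.989). The call was also lost on leaving out any of the 4 libraries, with adjusted p from 0.124 to 0.321.

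Car1 (chr3:14766216-14808368, minus strand) passed the test on the strength of few cells. It stood at 75.1, 0, 731 and 107 CPM in licensing-high cells and at 0, 0.29, 2.71 and 0.81 CPM in licensing-low cells. Library 2 had none on the high side. Counts were found in 11 of 66 and 8 of 132 cells, and 1 cell of library 3 held 71.3% of all the licensing-high counts. The log2 fold change of 7.51 (SE 0.83; edgeR adjusted p = 0.0071) rests on a group near 0 and is no measure of size. Without library 3 the adjusted p was 0.999, without library 1 it was 0.0798, and without the cells with Mki67 counts it was 0.989.

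Pclaf, a clamp-associated factor of S phase, was not called. Counts in 0.758% of licensing-low cells are under the filter's 5%, so it was tested only through the licensing-high cells. Its values are a description. It stood at 20.3, 0, 290.1 and 85.0 CPM against 0, 0, 4.97 and 0 CPM (edgeR adjusted p = 0.0572). It was found in 10 of 66 licensing-high cells, 1 of 66 between and 1 of 132 licensing-low cells. In thinned cells the shares were 13.6% and 0.758% of the licensing-high and licensing-low cells.

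**Figure D3:**
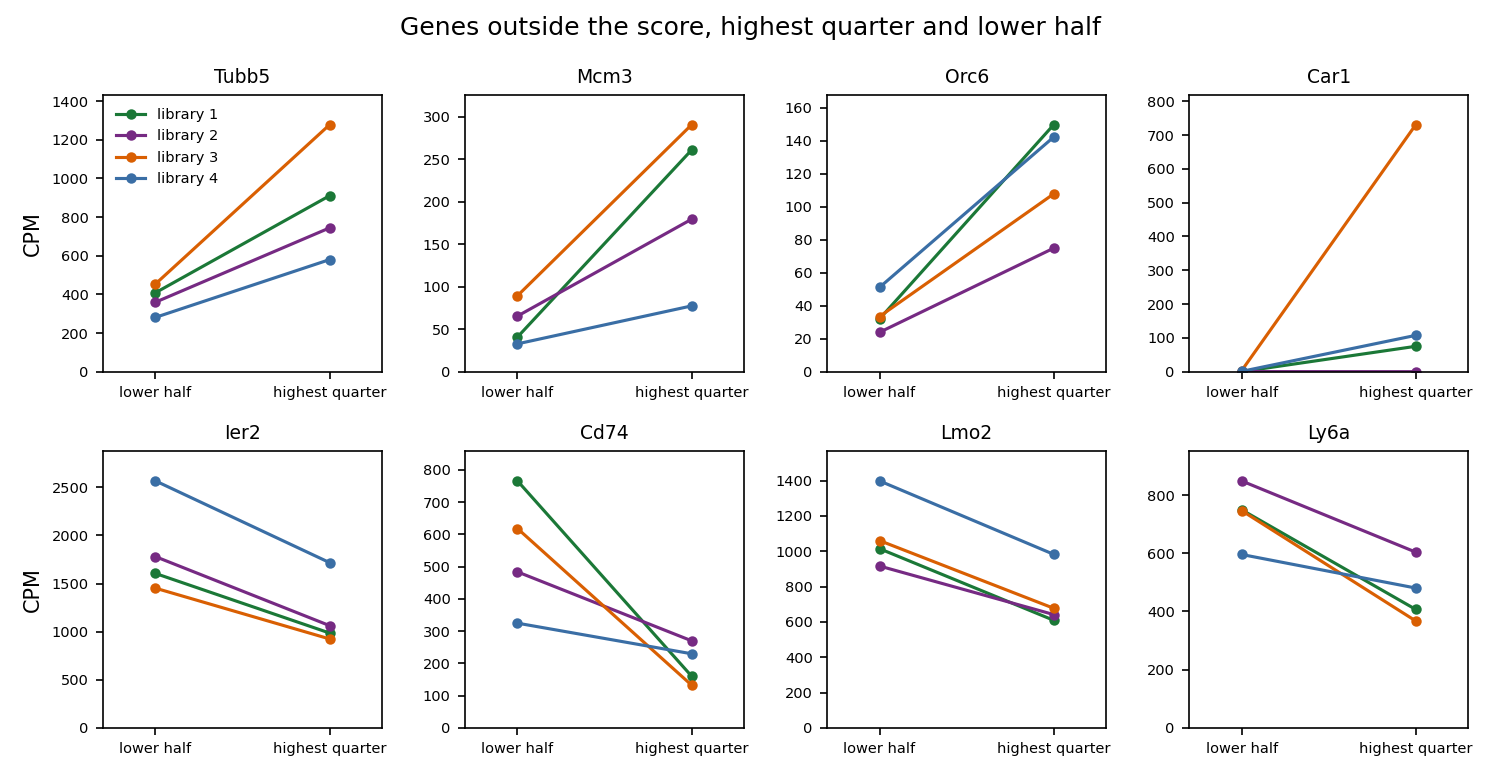
Level in CPM of 8 genes outside the score, in panels with linear axes from 0. Each line joins the licensing-low (left) and licensing-high (right) cells of 1 library. Tubb5, Mcm3 and Orc6 are higher on the right in 4 of 4 libraries, and Ier2, Cd74, Lmo2 and Ly6a lower in 4 of 4. Car1 is carried by library 3. Of the 8 genes, Tubb5, Car1 and Ier2 passed the test.

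Other genes of replication were described as lists, by the number of members past a threshold and the median log2 fold change. Summed levels weigh each cell by its total counts, so cells with many counts add more to them. They do not give the level of a typical cell. A gene with counts on the high side alone could pass the filter on low values, so counts over tested members lean upward and are given beside all genes only as a description. Among all genes tested, 6.37% were higher and 8.18% lower in 4 of 4 libraries. At an unadjusted p of 0.05 edgeR gave 2.48% higher and 2.64% lower. DESeq2 called 0.587% higher and 0.576% lower at its adjusted threshold. The sides did not overlap for 1.88% of genes upward and 2.26% downward.

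Origin licensing and firing held 22 genes, of which 17 were tested. None passed edgeR's adjusted threshold. At an unadjusted p of 0.05, 8 were higher and none lower, beside 2.48% of all genes higher. DESeq2 called 6 higher, beside 0.587%. Tested members had a median log2 fold change of 1.49, and 9 genes were higher in 4 of 4 libraries. Their summed level was 1028, 924, 1906 and 840 CPM in licensing-high cells, against 446, 559, 497 and 443 CPM in licensing-low cells. The median per cell was 790 against 411 CPM.

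Mcm3, the ring subunit between Mcm5 and Mcm7, stood at 261, 179.5, 291 and 77.4 CPM against 40.7, 65.4, 89.4 and 32.7 CPM (log2 fold change 1.76, SE 0.32; edgeR adjusted p = 0.150). It was found in 42 of 66 licensing-high, 23 of 66 intermediate and 42 of 132 licensing-low cells. Mcm7 stood at 197, 119.8, 295 and 77.4 CPM against 57.4, 75.6, 64.1 and 64.7 CPM, with library 4 close on both sides. Orc6, a subunit of the origin recognition complex, stood at 149.6, 74.8, 108 and 142 CPM against 31.9, 23.8, 33.4 and 51.1 CPM, with no overlap (log2 fold change 1.76, SE 0.37; edgeR adjusted p = 0.278). Unlike most of the list, Orc6 was not highest in library 3. The loading factors Cdt1 and Cdc6 were sparse. Cdt1 stood at 95.8, 68.9, 146 and 18.8 CPM against 10.8, 0.29, 3.16 and 5.09 CPM, from 14 of 66 and 8 of 132 cells. Cdc6 stood at 31.2, 21.4, 107 and 22.4 CPM against 0, 0, 3.16 and 7.53 CPM, from 9 and 2 cells. Gins2 of the GINS complex was found in 16 licensing-high and 2 licensing-low cells, while Gins4 differed little, at 66.6, 82.0, 109.6 and 83.9 CPM against 60.1, 79.1, 69.1 and 65.3 CPM.

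Polymerases and fork proteins held 32 genes, 27 of them tested. None passed edgeR's adjusted threshold. At an unadjusted p of 0.05, 11 were higher and 1 lower, beside 2.48% and 2.64% of all genes. DESeq2 called 4 higher, beside 0.587%. These members had a median log2 fold change of 1.03. The sum was 2146, 2359, 4307 and 1811 CPM against 1458, 1325, 1151 and 1453 CPM, and the excess was smallest in library 4. The median per cell was 1571 against 1324 CPM. Prim1, the primase that starts each fragment, stood at 157, 65.6, 231 and 44.5 CPM against 26.4, 45.1, 23.0 and 7.73 CPM. Lig1, which joins the fragments, stood at 45.3, 183, 415 and 57.9 CPM against 37.2, 24.1, 35.7 and 24.8 CPM. Pold1, the catalytic subunit of polymerase delta, stood at 51.0, 34.1, 77.7 and 82.1 CPM against 12.0, 8.72, 4.97 and 14.6 CPM. The gene lower in 4 of 4 libraries was Pole, the catalytic subunit of polymerase epsilon, at 40.6, 41.2, 28.2 and 104.5 CPM against 138, 56.7, 114 and 149.7 CPM. Its log2 fold change was -1.18 (SE 0.41; edgeR adjusted p = 0.825). Of the members highest by level, Rfc2 of the clamp loader was lower in library 4, at 124 against 217 CPM, and Pole4 was lower in library 1, at 137 against 148 CPM.

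Nucleotide synthesis held 24 genes, all tested. None passed edgeR's adjusted threshold. At an unadjusted p of 0.05, 7 were higher and none lower, beside 2.48% of all genes higher. DESeq2 called 2 higher, beside 0.587%. A median log2 fold change of 0.74 was found, and 11 genes were higher in 4 of 4 libraries, beside 6.37% of all genes. Paics of purine synthesis stood at 434, 374, 492 and 323 CPM against 206, 293, 229 and 227 CPM, with no overlap (log2 fold change 0.76, SE 0.20; edgeR adjusted p = 0.548). Dut, which removes dUTP, stood at 177.5, 215, 829 and 293 CPM against 132, 115, 102 and 139 CPM, also with no overlap. Tk1, thymidine kinase, stood at 17.9, 33.6, 302 and 22.4 CPM against 0, 7.85, 1.35 and 0.41 CPM. Rrm2, the partner of Rrm1 in ribonucleotide reductase, was found in only 6 of 66 licensing-high and 12 of 132 licensing-low cells. Its level was 7.08, 0, 261 and 35.5 CPM against 5.86, 0, 9.48 and 2.24 CPM, so library 3 held most of it. Without the cells with Mki67 counts, its log2 fold change went from 3.11 (SE 1.07) to 0.29.

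Chromatin assembly held 20 genes, 19 of them tested. None passed edgeR's adjusted threshold. At an unadjusted p of 0.05, 7 were higher and none lower, beside 2.48% of all genes higher. DESeq2 called 3 higher, beside 0.587%. Their median log2 fold change was 0.93. Dnmt1, which copies methylation to the new strand and works with Uhrf1, stood at 68.4, 144, 144 and 107 CPM against 63.3, 32.9, 54.2 and 29.7 CPM. Nasp, a chaperone of histone H3, stood at 91.6, 122, 159 and 57.5 CPM against 33.4, 39.3, 2.71 and 13.6 CPM. Both were above every low-side library. Hmgb2, a chromatin protein of dividing cells, stood at 941, 305, 1312 and 479.7 CPM against 364, 239, 327 and 339.7 CPM. Its log2 fold change of 1.05 (SE 0.25) became 0.43 without the cells with Mki67 counts. Rbbp7, a histone-binding protein, stood at 405, 508, 476 and 349 CPM against 348, 357, 294 and 301 CPM. Repair and checkpoint genes, with 16 of 24 tested, had 4 higher and none lower at an unadjusted p of 0.05, beside 2.48% of all genes higher. None was past edgeR's adjusted threshold and 3 were past that of DESeq2, beside 0.587%. The cohesin subunits Smc1a and Smc3, the most abundant of them, were higher in 3 and in 4 of 4 libraries.

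The regulators upstream of these genes differed less. The list of E2F and G1/S regulators had 18 of 25 genes tested. At an unadjusted p of 0.05, 2 were higher and none lower, beside 2.48% of all genes higher. None was past edgeR's adjusted threshold and 1 was past that of DESeq2, beside 0.587% of all genes higher. The median log2 fold change of the list was 0.35, and it was 0.00 without the cells with Mki67 counts. Ccnd2, the most abundant cyclin D, stood at 1070, 1190, 483 and 1000.3 CPM against 1042, 839, 1076 and 1117 CPM, lowest in library 3. Its partner Cdk4 stood at 346, 276, 354 and 366 CPM against 277, 229.7, 229 and 176 CPM, higher in 4 of 4 libraries (log2 fold change 0.57, SE 0.21; edgeR adjusted p = 0.871). Cdk6 stood at 43.4, 74.0, 97.3 and 51.4 CPM against 35.8, 25.9, 61.8 and 42.5 CPM. Ccna2, cyclin A of S phase and G2, stood at 36.8, 7.99, 161 and 7.24 CPM against 0, 0, 0.45 and 4.27 CPM, from 8 licensing-high and 2 licensing-low cells.

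Of the CDK inhibitors, which brake the cycle, 4 of 8 were tested, and none passed edgeR's or DESeq2's adjusted threshold or an unadjusted p of 0.05. Their median log2 fold change was -0.66. Their sum was 220, 219, 286 and 225 CPM against 247, 238, 283 and 384 CPM. Cdkn1c (p57), an inhibitor known for its place in quiescent HSCs, was found in 16 of 66 licensing-high and 36 of 132 licensing-low cells. It stood at 28.8, 15.1, 43.5 and 50.6 CPM against 5.57, 38.7, 56.4 and 105.4 CPM, higher in library 1 and lower in the other 3. Cdkn2d (p19), the most abundant, was lower in 4 of 4 libraries, at 131, 112, 132 and 151 CPM against 149, 115, 136 and 217 CPM, and Cdkn1a (p21) was lower in 2 of 4.

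Transcripts of G2 and mitosis were the list with the most members past the unadjusted threshold. Of 36 genes 28 were tested. At an unadjusted p of 0.05, 14 were higher and none lower, beside 2.48% of all genes higher. Only 1 of them (Tubb5) passed edgeR's adjusted threshold, and DESeq2 called 6 higher, beside 0.587% of all genes. The median log2 fold change was 1.49. The sum was 6357, 3511, 7729 and 3488 CPM against 2294, 2266, 2065 and 2246 CPM. Libraries 1 and 3, which held 4 licensing-high cells each with at least 3 counts of Mki67, were the highest, while libraries 2 and 4 held 1 and 0. The median of the list per cell was closer on the 2 sides, at 2950 CPM in licensing-high and 2225 CPM in licensing-low cells.

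The cytoskeletal members of the list were found in nearly all cells. Stmn1, which takes microtubules apart, stood at 1068, 944, 1693 and 646 CPM against 455, 524, 368 and 439 CPM (log2 fold change 1.2, SE 0.23; edgeR adjusted p = 0.191). Tuba1b, an alpha tubulin, stood at 903, 652, 1226 and 558 CPM against 379, 343, 335 and 377 CPM (log2 fold change 1.15, SE 0.20; edgeR adjusted p = 0.121). Neither overlapped between the sides, as was so for 1.88% of all genes tested in that direction. The defining mitotic genes were sparse instead. Top2a, the topoisomerase that separates copied chromosomes, was found in 18 of 66 licensing-high cells (27.3%, 95% exact interval 17.0 to 39.6%), in 10 of 66 between and in 20 of 132 licensing-low cells (15.2%, 9.51 to 22.4%). Birc5 was found in 16, 5 and 11 cells, Ccnb2 in 8, 1 and 6, and Cdk1 in 15, 15 and 24. These intervals cover counting error only.

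Mki67 marked a small number of cells, most of them high in the score. At least 3 counts were found in 12 of the 264 cells, of which 9 were licensing-high, 3 lay between and none was licensing-low. The 9 cells had a median score of 3034 CPM and a median of 7 of the 8 score genes. The other 57 licensing-high cells had a median of 799 CPM and 3 genes, yet the highest of them reached 4138 CPM. Mki67 itself stood at 104, 37.0, 87.5 and 0 CPM against 0, 0.29, 0 and 0.61 CPM.

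The comparison was repeated without those 12 cells. Of 9301 genes edgeR called 0 higher (0.0%) and 0 lower (0.0%), with 126 (1.35%) and 261 (2.81%) at an unadjusted p of 0.05. DESeq2 was not run on that subset. The median log2 fold change of the G2 and mitosis list went from 1.49 to 0.48, that of origin licensing from 1.49 to 0.98 and that of polymerases and fork proteins from 1.03 to 0.77, beside -0.18 for all genes tested. For G2 and mitosis these medians cover 28 and 23 tested genes, so not the same genes. Genes higher in 4 of 4 libraries were 7 of 23, 7 of 17 and 10 of 27 in the same order, beside 4.97% of all genes higher and 8.84% lower in 4 of 4. Each of the 3 sums was still higher in 4 of 4 libraries. For origin licensing it was 815, 929.5, 1160 and 844 CPM against 450.4, 561, 503 and 445 CPM. For G2 and mitosis the mean was 3628 ± 398 CPM (SD, n = 4) against 2233 CPM.

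**Figure D4:**
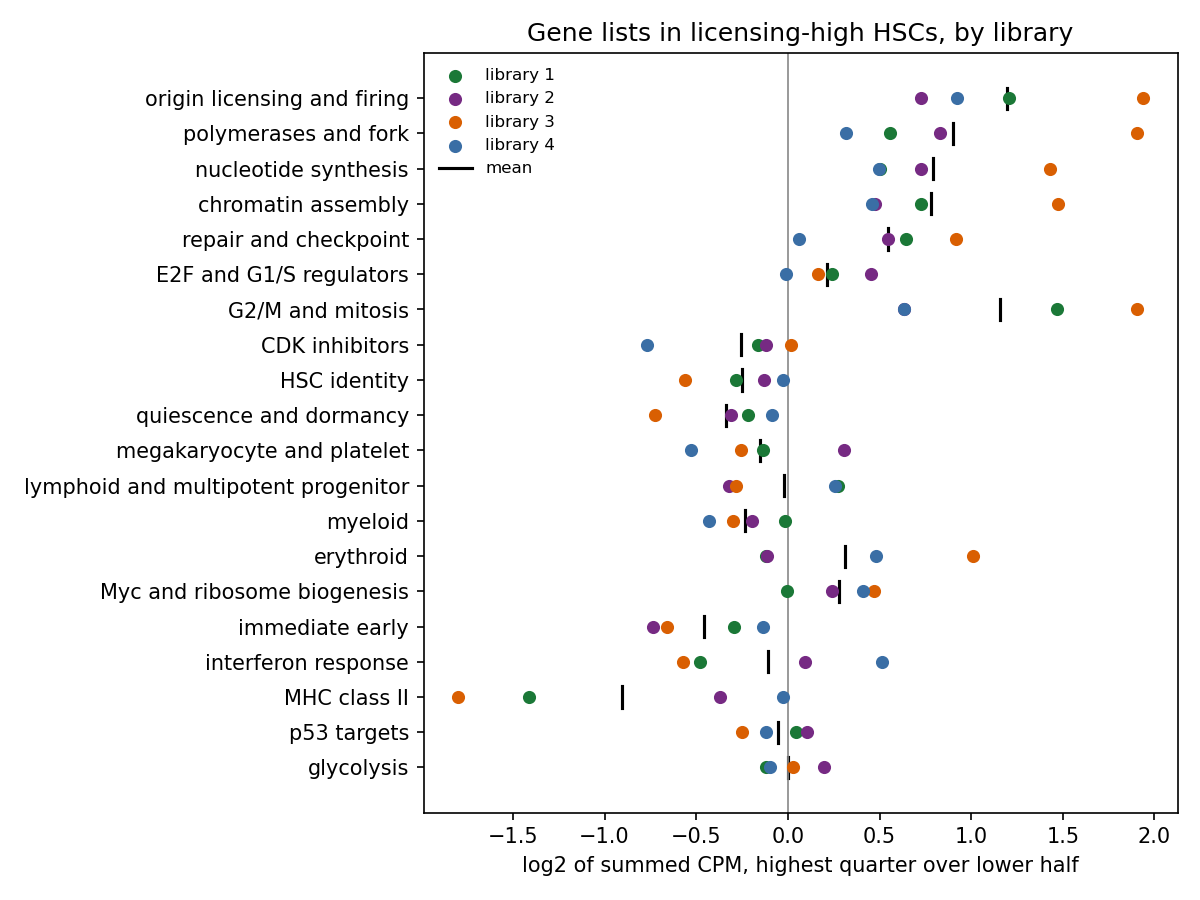
Log2 ratio of the summed CPM of each gene list in licensing-high over licensing-low cells. Each point is 1 of the 4 libraries and each black bar their mean. The 5 replication lists and the G2 and mitosis list lie right of 0 in 4 of 4 libraries. HSC identity, dormancy, myeloid, immediate early and MHC class II lie left of 0 in 4 of 4.

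HSC transcripts were found throughout the licensing-high cells, at a slightly lower sum. The HSC identity list, 35 genes all tested, summed to 11463, 12628, 9651 and 13195 CPM against 13971, 13831, 14236 and 13463 CPM, lower in 4 of 4 libraries and closest in library 4. None passed edgeR's adjusted threshold. At an unadjusted p of 0.05 none was higher and 4 of 35 were lower, beside 2.64% of all genes. DESeq2 called 2 lower, beside 0.576% of all genes. In 4 of 4 libraries 4 of the 35 were lower, beside 8.18% of all genes. The median log2 fold change was -0.28, beside -0.09 for all genes. Procr, the CD201 antigen of the sort, stood at 220, 326, 208 and 249 CPM against 351, 288, 238 and 262 CPM. Mecom, a transcription factor of long-term HSCs, was found in 65 of 66 and 125 of 132 cells and was lower in library 3 alone, at 232, 286, 174 and 263 CPM against 188, 253, 338 and 213 CPM. Kit, the receptor used in the enrichment, was found in 59 of 66 and 115 of 132 cells.

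Lmo2 and Ly6a were the members of the identity list with the lowest p. Lmo2, an adaptor of blood transcription factors, stood at 609, 641.5, 677 and 982 CPM against 1014, 916, 1060.3 and 1398 CPM (log2 fold change -0.60, SE 0.12; edgeR adjusted p = 0.210). Ly6a, which encodes the Sca-1 antigen of the sort, stood at 407, 604, 367 and 480.4 CPM against 749, 848.5, 747 and 596 CPM (log2 fold change -0.68, SE 0.16; edgeR adjusted p = 0.485). Each was lower in 4 of 4 libraries. Ifitm1 and Ifitm3, the most abundant members, were lower in 3 and in 2 of 4 libraries.

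Dormancy genes also summed lower in the licensing-high cells, in 4 of 4 libraries. The list of quiescence and dormancy, with 21 of 22 genes tested, summed to 5923, 5789, 4540.0 and 6645 CPM against 6893, 7186, 7516 and 7053 CPM. None passed edgeR's or DESeq2's adjusted threshold. At an unadjusted p of 0.05, 2 were lower and none higher, beside 2.64% of all genes lower. In 4 of 4 libraries 6 were lower, beside 8.18% of all genes. The median log2 fold change was -0.42. The mean log2 ratio of the sums over the 4 libraries was -0.34, and -0.16 in thinned cells ranked anew. Nr4a1, a nuclear receptor known to restrain HSC proliferation, stood at 38.7, 3.36, 76.5 and 68.7 CPM against 78.3, 100.03, 149.9 and 84.8 CPM, with no overlap (log2 fold change -1.52, SE 0.67; edgeR adjusted p = 0.959). Btg1, an antiproliferative factor, stood at 43.9, 61.8, 25.7 and 74.2 CPM against 49.8, 75.6, 93.9 and 89.5 CPM. Apoe and Txnip, the most abundant members, were each lower in 3 of 4 libraries. In thinned cells ranked anew, each of these 4 genes was lower in 2 of 4.

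Immediate early genes, switched on quickly by growth factors and by the handling of cells, included Ier2 above. Of 19 genes 15 were tested, and 1 passed edgeR's adjusted threshold. At an unadjusted p of 0.05, 7 were lower and none higher, beside 2.64% of all genes lower. DESeq2 called 4 lower, beside 0.576%. Fos stood at 4320, 3790, 2534 and 4991 CPM against 4759, 6198, 3752 and 5390 CPM (log2 fold change -0.38, SE 0.10; edgeR adjusted p = 0.548). Jun stood at 3859, 3410, 2526 and 5043 CPM against 4364, 5217, 4848 and 5239 CPM (log2 fold change -0.45, SE 0.13; edgeR adjusted p = 0.590). Dusp1, a phosphatase of the same response, stood at 1580, 1447, 1669 and 2171 CPM against 2291, 2763, 1909 and 2514 CPM. Each of the 3 was lower in 4 of 4 libraries in these sums. The median level of Fos per cell was higher in the licensing-high cells of library 4, at 5656 against 5022 CPM. In thinned cells ranked anew, the mean log2 ratio of the summed list was -0.19, against -0.46 at full depth. Fos and Dusp1 were each lower in 2 of 4 libraries in thinned cells, and Jun in 3 of 4. Without the cells with Mki67 counts the sum of the list was lower in 3 of 4 libraries, with library 1 the exception.

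The largest difference in antigen presentation was that of Cd74. This gene, the invariant chain of MHC class II, stood at 160, 269.9, 132 and 229.7 CPM against 766, 484, 618 and 325 CPM, with no overlap, as was so for 2.26% of all genes in that direction. Its log2 fold change was -1.45 (SE 0.30; edgeR adjusted p = 0.278). It was found in 40 of 66 licensing-high and 88 of 132 licensing-low cells. H2-Aa, an MHC class II chain, overlapped, at 115, 201, 50.2 and 114 CPM against 154, 268, 187 and 111 CPM. Of the 7 genes of the list 6 were tested, and 2 were lower at an unadjusted p of 0.05, beside 2.64% of all genes. None passed edgeR's adjusted threshold and 1 passed that of DESeq2, beside 0.576% of all genes lower. The class I partner B2m stood at 9455, 9571, 9712 and 10107 CPM against 12279, 12090, 12736 and 9899 CPM, lower in 3 of 4 libraries.

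Growth genes gave mixed values. The list of Myc and ribosome biogenesis had 26 of 27 genes tested. At an unadjusted p of 0.05, 5 were higher and none lower, beside 2.48% of all genes higher. None passed the adjusted threshold of edgeR or DESeq2, and the median log2 fold change was 0.25. The sum was 6530, 7052, 8803 and 8611 CPM against 6555, 5965, 6355 and 6492 CPM, with library 1 level. Hspd1, a mitochondrial chaperonin, stood at 286, 372, 461 and 296 CPM against 212.5, 226, 231 and 184 CPM, with no overlap (log2 fold change 0.71, SE 0.19; edgeR adjusted p = 0.573). Nop56, which guides ribosomal RNA methylation, stood at 132, 197, 219 and 210.2 CPM against 92.9, 125, 106 and 113 CPM, also with no overlap. Npm1 and Eif5a, the most abundant members, were higher in 2 and in 3 of 4 libraries. Mycn stood at 279, 244, 200.2 and 255 CPM against 269, 181, 187 and 229 CPM.

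Glycolysis was split. Its sum was 3868, 4571, 3687 and 3767 CPM against 4207, 3984, 3614 and 4024 CPM, higher in 2 of 4 libraries, and the median log2 fold change was 0.19. Of 14 genes tested none passed edgeR's or DESeq2's adjusted threshold. At an unadjusted p of 0.05 none was higher and 2 were lower, beside 2.64% of all genes lower. Aldoa, aldolase, was lower in 4 of 4 libraries, at 498, 820, 593 and 636 CPM against 1104, 833, 855 and 843 CPM. Ldha, lactate dehydrogenase, was higher in 4 of 4, at 794, 1037, 922 and 1017 CPM against 734, 849, 787 and 857 CPM. The p53 targets gave 1 gene higher and 1 lower at an unadjusted p of 0.05 of 9 tested, and the interferon response 0 higher and 1 lower of 21. Of all genes 2.48% were higher and 2.64% lower at that p. None of these members was past the adjusted threshold of either tool. Their most abundant members, Sesn1 and Bax among the p53 targets and Ifi203 and Bst2 of the interferon response, went both ways across the libraries.

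Lineage genes did not share a direction. The megakaryocyte list summed to 1738, 2005, 1694 and 1474 CPM against 1911, 1622, 2024 and 2127 CPM, and its most abundant members, Gng11 and Cd9, were lower in 3 and in 2 of 4 libraries. The lymphoid and multipotent list summed to 1052, 1005, 1044 and 1007 CPM against 869, 1256, 1271 and 844 CPM, and H2-DMa and Bcl11a, its most abundant members, were higher in 3 and in 2 of 4. Pf4 of platelets was lower in 4 of 4 libraries, at 35.4, 48.8, 76.5 and 27.5 CPM against 39.6, 107, 134 and 164 CPM (log2 fold change -1.16, SE 0.45; edgeR adjusted p = 0.947). The myeloid list, with 7 of 14 genes tested, summed to 1715, 1703, 1501 and 1429 CPM against 1735, 1948, 1845 and 1925 CPM, lower in 4 of 4 libraries. Its mean log2 ratio was -0.23, and -0.052 in thinned cells ranked anew. None of its genes passed the adjusted threshold of edgeR or DESeq2. At an unadjusted p of 0.05, 2 (Prtn3 and Spi1) were lower and none higher, beside 2.64% of all genes lower. Lyz2, lysozyme, stood at 820.5, 777, 828 and 859 CPM against 916, 911, 1060 and 859 CPM, level in library 4. Prtn3, a granule protease, stood at 503, 582, 229.5 and 423 CPM against 484, 611, 501 and 689.5 CPM, higher in library 1. Spi1, the myeloid factor PU.1, was lower in 4 of 4, at 202, 196, 79.6 and 82.1 CPM against 211, 243, 225 and 199.9 CPM. The granule genes Mpo and Elane were found in 1 and 0 of 66 licensing-high and in 3 and 1 of 132 licensing-low cells. Cd27, the gene of the sorted receptor, was found in 38 of 66 licensing-high, 36 of 66 intermediate and 84 of 132 licensing-low cells. It stood at 114, 202, 193 and 109 CPM against 213, 181, 271 and 153 CPM (log2 fold change -0.43, SE 0.25; edgeR adjusted p = 0.986).

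The erythroid list was high in library 3. It summed to 2558, 2544, 5966 and 3571 CPM in licensing-high cells, against 2783, 2754, 2962 and 2558 CPM. The median per cell was 2627 against 2513 CPM. Of 14 genes 10 were tested, and edgeR called Car1 alone. DESeq2 called 1 higher, beside 0.587% of all genes. At an unadjusted p of 0.05, 2 were higher and none lower, beside 2.48% higher. In 4 of 4 libraries 3 were higher, beside 6.37%. Hba-a1, an alpha globin, stood at 23.1, 22.7, 507 and 294 CPM against 25.8, 32.6, 32.95 and 72.8 CPM, though reads of the 2 near-identical alpha globin genes may not be told apart. Gata1, the erythroid transcription factor, was found in 4 of 66 licensing-high, none of 66 intermediate and 1 of 132 licensing-low cells, where 0 of 66 allows a share of cells with a count of up to 4.55%. Other members did not differ so. Klf1 was found in 4 of 66 licensing-high and 4 of 132 licensing-low cells, and Hbb-bt in 20 and 40, which is 30.3% of each side. Car2, found in every cell, stood at 2311, 2218, 3853 and 2764 CPM against 2498, 2488, 2589 and 2336 CPM. Without the cells with Mki67 counts the erythroid sum was higher in 1 of 4 libraries. The part of these cells in the results for library 3 was not tested beyond leaving out that library and the cells with Mki67 counts.

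Markers of other cells that the gate could hold differed in level from list to list. B cell markers summed to 74.7 to 119 CPM in licensing-high and 106 to 140.4 CPM in licensing-low cells, nearly all from Cd79b. That gene was found in 25 of 66 licensing-high and 53 of 132 licensing-low cells. Markers of T and NK cells gave 12.9 to 95.8 and 38.1 to 112.6 CPM, stromal markers 0 to 66.2 and 5.82 to 45.0 CPM, and macrophage markers 0.42 to 45.9 and 15.4 to 57.8 CPM, with Vcam1 at 0. Endothelial markers gave 293 to 484 and 396 to 528 CPM, with Egfl7 the highest member and Cdh5 at 0. The mast cell list gave 78.4 to 404 and 251 to 370 CPM, nearly all from Gata2, which HSCs also express. Its other member, Cpa3, stood at 0.94 CPM in licensing-high cells of library 1 and at 0 elsewhere. Few of these genes could be tested, 1 in each list but the endothelial one, which had 5. The count table held 3 of 7 macrophage and 2 of 7 mast cell markers. None of the genes tested in these lists of other cells passed the adjusted threshold of edgeR or DESeq2 or an unadjusted p of 0.05. The part of other cells in the results was not tested.

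Across the cells of a library, the genes whose level most resembled the score were Pcna-ps2, Orc6, Tars, Ddx46 and Tubb5. Their mean Spearman rank correlation with the score over the 4 libraries was 0.451, 0.324, 0.28, 0.275 and 0.264, the highest of 5502 genes found in at least 20% of cells with the 8 score genes left out. Pcna-ps2 is a processed copy of Pcna, and reads of the 2 may not be told apart, so its value is uncertain. Tars charges threonine transfer RNA, and Ddx46 is a helicase of splicing. The correlation was positive in each library for all 5 genes, from 0.136 for Tubb5 in library 1 to 0.525 for Pcna-ps2 in library 3. The points of each correlation are cells of 1 library that differ in depth, and the values are a description.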

How the data were processed

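RNA of single ESLAM SK HSCs was measured by a modified Smart-seq2 (STRT-seq) protocol in 4 libraries. Per the labels' protocols, cells were sorted singly with settings against doublets, barcoded through the oligo-dT primer, amplified, pooled and sequenced from their 3′ ends. The authors deposited unnormalized counts for 13742 genes in 297 cells. The submitters' processing notes name the GRCm38 build, HTSeq 0.9.1, HISAT2 2.1.0 and Trimmomatic 0.36. Collapsing by molecular identifier is not mentioned, and the median nonzero count was 18, so counts may include copies made by PCR. No doublet caller was run, and no 2 cells held identical counts.

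Cells kept had 32091 to 346876 counts, and 21 cells fell under the minimum of 30000 counts or 1000 genes. The 2 runs of cells set aside were numbers 26 to 33 of library 2 and 9 to 16 of library 4. The score and the medians per cell used plain CPM per cell. All other CPM values used the counts summed per library and side (1678722 to 2837993 on the high side, 2228617 to 4995848 on the low side), scaled to edgeR's effective library sizes. edgeR 4.0.16 in R 4.3.3 (TMM, quasi-likelihood test, library as block) was the main test, with Benjamini-Hochberg adjustment over all genes and a threshold of 0.05. Library was a block since both sides come from the same library. DESeq2 1.42.0 was an alternative. Both were checked on simulated data, where DESeq2 called more unchanged genes than edgeR, so its counts stand beside those of edgeR. In the same data edgeR recovered fewer of the changed genes than DESeq2 and missed many of them. A gene that edgeR did not call is therefore not shown to be unchanged. Thinning drew 30000 counts per cell with a fixed seed. For fits and summed levels in thinned cells, cells were ranked anew by their thinned counts, so the groups differ as well as the depth. Shares of cells and genes detected after thinning kept the groups of the full counts.

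The members, markers and gene lists were chosen with earlier results of these data known. Genes named are the score genes, genes past the threshold in the same direction in 4 of 4 libraries with at least 20 CPM, the 2 highest members of each list and the 5 most like the score. Among markers of other cells, not all of these are described. Car1 and other genes outside that rule were named after their values were seen. Gene positions are from GENCODE on GRCm38.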

Additional observations from a re-analysis of the deposited data

Results flagged for a closer look

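In 127 groups of 4 library values, 8 had a library far from the other 3 by Dixon's test at the 95% level, its gap to the nearest taken over the range. Chance gives about 1 in 20 such groups. Library 3 was the distant one in 5 of them. In licensing-high cells these were Car1, at 731 CPM, the summed CDK inhibitors, at 285.9 CPM, and, in cells chosen by the other 7 genes, Mcm4 at 240.1 CPM and Pcna at 569.5 CPM. In licensing-low cells it was Pclaf, at 4.97 CPM. Library 2 stood apart with a summed level of T and NK cell markers of 95.85 CPM in licensing-high cells and of E2F and G1/S regulators of 1566 CPM in licensing-low cells. Library 1 stood apart with Mcm2 at 10.93 CPM in the cells ranked low by the other 7 genes.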

How the results depend on the processing

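Of 253 values recomputed under other settings, 207 were taken as kept, and no called value changed direction. A tested gene was kept if it stayed on its side of the threshold. List ratios and the difference in genes detected were kept if they moved by less than the spread between libraries. Counts of called genes have neither, and a count that went from 2 to 3 was taken as kept. Mean log2 ratios near 0 did change sign: that of the interferon sums went from -0.11 to 0.026 with thinned cells, and that of the lymphoid sums from -0.019 to 0.017 with thinned cells and 0.11 without cells with Mki67 counts. The values that moved are as follows. The count of genes higher in licensing-high cells, 2, became 55 with DESeq2, 19 with no filter on low counts, 1 with a stricter one, 4 with no replicate block, 1 against all other cells, 0 without cells with Mki67 counts and 0 to 6 on leaving out 1 library. The count of genes lower, 1, became 54 with DESeq2, 3 with no filter, 0 with no replicate block, with thinned cells, with a score from log2 values, against all other cells or without cells with Mki67 counts, and 0 to 1 on leaving out 1 library. Of the 8 score genes tested in cells chosen by the other 7, DESeq2 called 5 and the fit with no replicate block 1, against 0. The mean log2 ratio of the myeloid sums was -0.052 with thinned cells, against -0.23. The causes were not tested. Tubb5 stayed past the threshold in 11 of 16 alternatives, Ier2 in 7 of 16 and Car1 in 11 of 15, and their log2 fold changes ranged from 0.81 to 1.23, from -0.70 to -0.33 and from 5.09 to 8.09. Depth limits what can be said of sparse genes such as Cdc6 and Mki67, found in few cells of each library.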
